A study of Mus musculus with 6 samples.

Results

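Transcripts of 9 CC chemokine genes were followed through 6 single-cell libraries of mouse kidney and mammary tumor. The genes, Ccl2, Ccl3, Ccl4, Ccl5, Ccl6, Ccl7, Ccl8, Ccl9 and Ccl12, were taken as a list by symbol, and each symbol matched 1 of the 31053 genes in both tables. Kidney tissue was from C57BL/6 mice (an inbred strain, male, 12 weeks of age) and the tumors from 10-week-old female MMTV-PyMT mice, in which the MMTV promoter drives the polyoma middle T oncogene in the mammary epithelium. For each tissue, 1 library was made from a 60 min collagenase digestion under agitation with pipetting and vortexing (the control), 1 from cells that left a microfluidic platform of a digestion device and a dissociation/filter device at 15 min, and 1 from cells collected at its 60 min interval, when the tissue left over at 15 min had been processed further. All cells had been treated with collagenase, DNase I and red cell lysis buffer and sorted for exclusion of a dead-cell dye. The comparison addresses how the dissociation route and time bear on the transcripts of the recovered cells.

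CC chemokines are small secreted proteins that draw leukocytes along a gradient and act through G-protein-coupled receptors of the Ccr family. Ccl3, Ccl4 and Ccl5 attract T cells and myeloid cells, while Ccl2, Ccl7, Ccl8 and Ccl12 belong to the monocyte chemoattractant group, in which Ccl2, Ccl7 and Ccl12 act on Ccr2. Ccl6 and Ccl9 are rodent chemokines made by myeloid cells that signal through Ccr1. Several of these genes are known to be switched on rapidly in macrophages by NF-κB and AP-1, transcription factors that respond to inflammatory stimuli and to cell stress.

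The 9 genes lie on chromosome 11 of GRCm38 (the mm10 build) in 2 groups. Ccl2 (chr11:82035571-82037453), Ccl7 (chr11:82045712-82047525), Ccl12 (chr11:82101845-82103400) and Ccl8 (chr11:82115185-82116799), all on the plus strand, span 81229 bases together with Ccl11. The other group starts 1408978 bases further on and holds Ccl5 (chr11:83525778-83530518), Ccl9 (chr11:83572919-83578636), Ccl6 (chr11:83587882-83593087) and Ccl3 (chr11:83647844-83649355) on the minus strand and Ccl4 (chr11:83662584-83664683) on the plus strand, over 138906 bases. In the annotation, Ccl2 overlaps Gm17268 on the opposite strand, a gene with 0 UMIs in the kept cells of all 6 libraries, and Ccl6 overlaps the transcript E230016K23Rik. The closest neighbours are Ccl2 and Ccl7, 8258 bases apart, and Ccl9 and Ccl6, 9245 bases apart.

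Promoter sequences from RefSeq (GRCm38.p6) matched 5 of the 9 genes, and the 250 bases before each start site are shown because they take in members with higher (Ccl3, Ccl8, Ccl12) and with lower (Ccl6, Ccl9) tumor macrophage levels at 60 min than in the control. Capitals mark matches to the motifs searched, and all sequences run 5′ to 3′ on the strand of the gene.
Ccl12 promoter, plus strand, chr11:82101595-82101844: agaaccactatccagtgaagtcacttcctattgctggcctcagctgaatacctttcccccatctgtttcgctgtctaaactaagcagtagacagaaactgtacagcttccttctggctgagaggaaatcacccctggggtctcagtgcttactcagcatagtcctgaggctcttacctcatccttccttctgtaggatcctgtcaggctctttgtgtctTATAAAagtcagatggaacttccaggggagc
Ccl8 promoter, plus strand, chr11:82114935-82115184: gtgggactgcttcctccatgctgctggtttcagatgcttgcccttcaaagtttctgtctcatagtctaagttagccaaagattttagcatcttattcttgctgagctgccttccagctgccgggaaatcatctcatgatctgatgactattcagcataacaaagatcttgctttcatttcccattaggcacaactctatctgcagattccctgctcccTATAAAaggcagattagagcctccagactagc
Ccl3 promoter, minus strand, chr11:83649379-83649628: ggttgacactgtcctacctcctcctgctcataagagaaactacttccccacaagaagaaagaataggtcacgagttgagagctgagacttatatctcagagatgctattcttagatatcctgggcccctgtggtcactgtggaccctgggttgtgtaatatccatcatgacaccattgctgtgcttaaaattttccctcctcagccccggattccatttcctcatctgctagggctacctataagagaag
Ccl6 promoter, minus strand, chr11:83593088-83593337: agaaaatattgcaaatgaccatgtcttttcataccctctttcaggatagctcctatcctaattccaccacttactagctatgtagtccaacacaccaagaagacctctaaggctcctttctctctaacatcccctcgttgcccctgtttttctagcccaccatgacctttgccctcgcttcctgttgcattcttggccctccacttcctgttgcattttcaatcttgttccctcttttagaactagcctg
Ccl9 promoter, minus strand, chr11:83578637-83578886: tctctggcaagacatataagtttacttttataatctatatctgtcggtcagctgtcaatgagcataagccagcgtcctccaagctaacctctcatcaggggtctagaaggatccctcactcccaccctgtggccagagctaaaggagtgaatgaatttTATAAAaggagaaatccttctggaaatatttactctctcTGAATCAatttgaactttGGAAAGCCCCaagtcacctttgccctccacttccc

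TATAAA, read on the gene's strand alone, was found in 3 of the 5 promoters, at -31 to -26 in Ccl12, -32 to -27 in Ccl8 and -92 to -87 in Ccl9, with positions counted back from the start site. It was present in 7.59% of the 32851 mouse promoters of the same length. The 10-base NF-κB consensus matched at -35 to -26 of Ccl9 and in 7.25% of all promoters on either strand, and the AP-1 motif TGANTCA matched at -53 to -47 of Ccl9 and in 6.75%. The C/EBP motif TTGCNNAA (9.56% of all promoters) and an interferon-response motif of GAAA, 2 bases of any kind and GAAA (2.98%), both read on either strand, had no match in these 5 windows. None of the matches found overlapped another. The neighbours Ccl9 and Ccl6 shared an unbroken run of 13 bases, gccctccacttcc, at -14 to -2 and -55 to -43, longer than the run of any other pair of the 5.

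The tables hold counts of unique molecular identifiers (UMIs), which count each captured transcript once at its 3′ end, so values were not divided by gene length. After filters on genes and mitochondrial share, 5886 to 9936 cells per kidney library and 5736 to 6024 per tumor library were kept, with medians of 4583 to 9476 UMIs per cell. Levels are given as CPM (UMIs of a gene per 1000000 UMIs), summed over the cells of a class, with 95% exact Poisson intervals, and ratios of levels with exact conditional binomial intervals. With 1 library per condition there was no replicate check and no test between conditions, and all intervals cover counting error only. Cells were put in classes by marker genes, 3 or more of a list being required and cells that passed for more than 1 lineage being set apart. The tables of the tissues had been evened for depth separately, so levels in kidney and tumor are shown side by side only. Pairs of kidney libraries shared 53 to 211 barcode sequences and pairs of tumor libraries 16 to 21. Leaving out such cells changed none of the 8 counts of members past 2-fold given for macrophages.

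Macrophages were the main source of 8 of the 9 genes. The macrophage gate held 794 control, 122 platform 15 min and 1383 platform 60 min cells in kidney and 886, 926 and 1393 in the tumor. The complement gene C1qa, a macrophage marker, stood at 5030 CPM in gated kidney control macrophages and 2.53 CPM in proximal tubule cells of the same library. Macrophages were scarce in the 15 min kidney library, where they were 1.45% of kept cells against 13.5% for the control and 13.9% at 60 min, and where proximal tubule cells were 85.0%. All 9 macrophage markers had UMIs in every library. The summed monocyte markers stood at 180 CPM in the 15 min kidney macrophages and at 34.2 and 34.7 CPM in the control and 60 min ones, with F10, Hp, Vcan, Plac8, Chil3 and Ly6c2 as the list, and their part in the kidney values was not tested. Over the 3 libraries together, macrophages held 895 of the 942 Ccl8 UMIs, 87.5% of the Ccl12 UMIs, 78.4% of Ccl3, 76.8% of Ccl4, 63.1% of Ccl7, 62.5% of Ccl2, 56.3% of Ccl6 and 55.0% of Ccl9 in kidney. In the tumor, the share lay between 76.6% for Ccl9 and 90.8% for Ccl12 for the same 8 genes.

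Ccl5 was the exception, since T lymphocytes held 41.0% and NK cells 30.5% of its kidney UMIs and macrophages 8.33%. In the tumor, macrophages held 34.8% of the Ccl5 UMIs, T lymphocytes 26.4% and NK cells 6.87%, with 18.1% in cells that passed no gate. Dendritic cells were the next gated source of kidney Ccl2, with 21.1% of its UMIs, and of Ccl7, with 16.9%. Cells that passed for more than 1 lineage, which include doublets, held between 3.82% of kidney Ccl8 and 16.9% of kidney Ccl7.

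**Figure D1:**
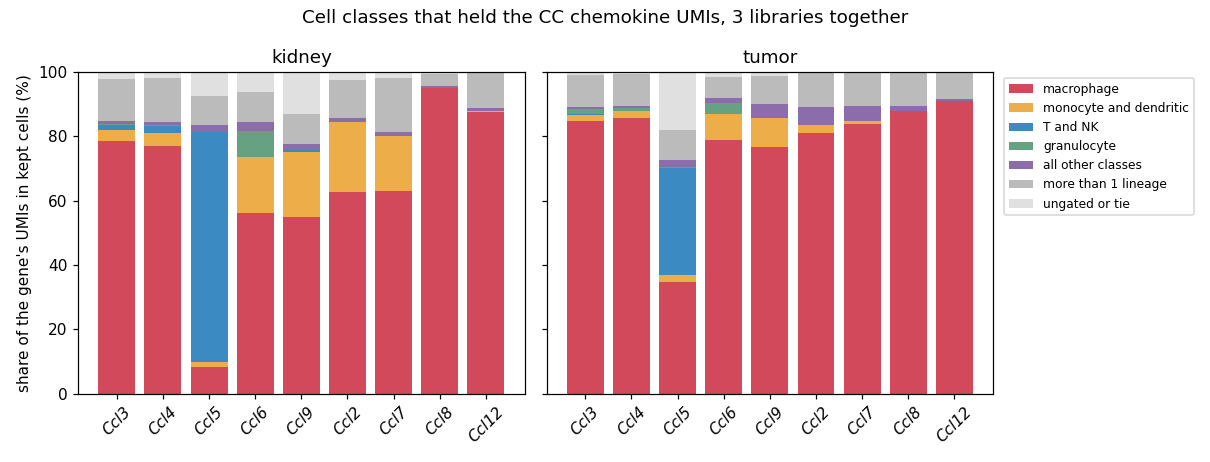
Stacked bars give the share (%, y axis) of each CC chemokine's UMIs (x axis) held by each group of cell classes, over the 3 libraries of kidney (left) and tumor (right). Macrophages hold at least 55.0% of the UMIs of every gene but Ccl5, for which lymphocytes lead in kidney.

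Together, the 9 genes supplied 1.42% of all UMIs of kidney macrophages for the control, 0.840% for the 15 min and 2.74% for the 60 min library. For tumor macrophages the shares were 0.592, 0.798 and 1.70% in that order. Ccl3 and Ccl4 supplied most of these UMIs, 87.5 to 92.8% in the kidney libraries and, in the tumor, 77.8% at 15 min and 76.4% at 60 min. The share was lowest for the tumor control, where 12206 Ccl3 and 27146 Ccl4 UMIs were among 59634. Over all kept kidney cells, the 9 genes took 0.281% of UMIs for the control, 0.599% at 60 min and 0.0219% at 15 min, where macrophages were few.

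**Figure D2:**
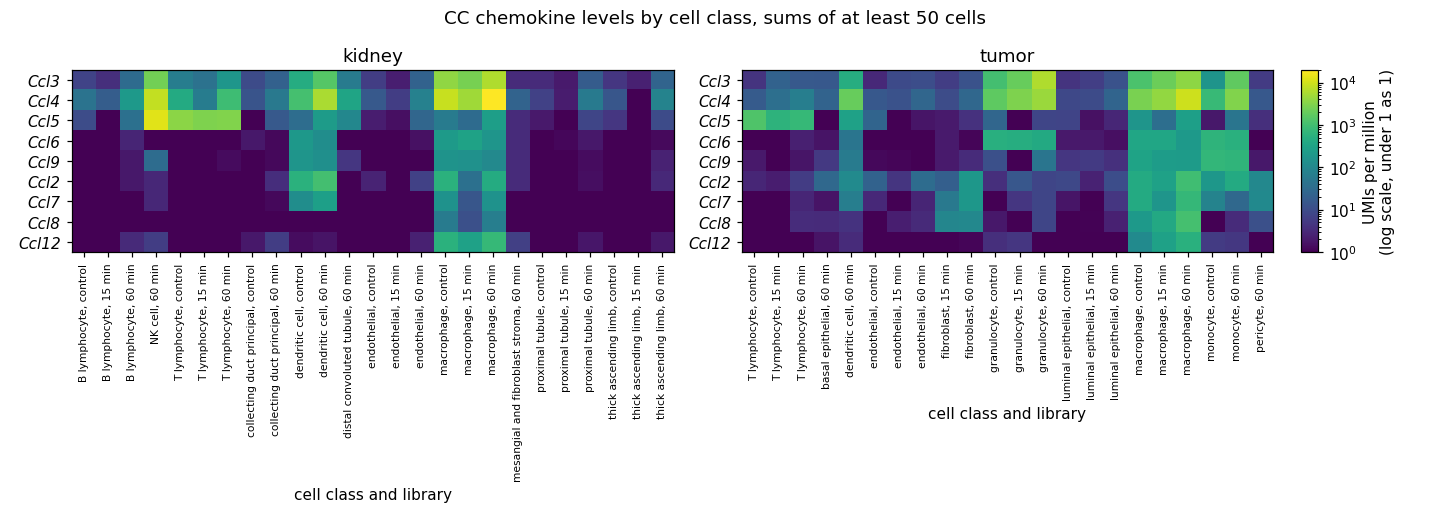
Colours give the level (CPM, log scale, values under 1 drawn as 1) of each CC chemokine (rows) in each cell class and library with at least 50 cells (columns), kidney left and tumor right. Ccl3 and Ccl4 reach into macrophages, dendritic cells, NK cells and granulocytes, Ccl5 into T and NK cells, and Ccl12 is high in macrophages alone, with at most 6.64 CPM in any other column.

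Ccl3 and Ccl4 (also called MIP-1α and MIP-1β) attract macrophages, T cells and granulocytes. In kidney macrophages, Ccl3 stood at 3912 CPM in the control (interval 3859 to 3965), 2675 CPM at 15 min (2548 to 2807) and 6204 CPM at 60 min (6150 to 6259). Ccl4 stood at 8545 CPM in the control, 4887 CPM at 15 min and 19242 CPM at 60 min. Both genes were therefore lowest in the 15 min and highest in the 60 min kidney library. Against the control, the 60 min level of Ccl4 was 2.25-fold higher (interval 2.23 to 2.28) and that of Ccl3 1.59-fold higher (1.56 to 1.61), while at 15 min the ratios were 0.572 (0.551 to 0.593) and 0.684 (0.650 to 0.719).

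In tumor macrophages, the control library had the lowest level of both genes. Ccl3 stood at 1212 CPM in the control, 2124 CPM at 15 min and 3730 CPM at 60 min. Ccl4 stood at 2696 CPM in the control, 4085 CPM at 15 min and 9237 CPM at 60 min. The 60 min levels were 3.08-fold (interval 3.02 to 3.14) and 3.43-fold (3.38 to 3.47) those of the control, and the 15 min levels 1.75-fold (1.71 to 1.79) and 1.52-fold (1.49 to 1.54).

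The share of macrophages with a Ccl4 UMI followed the same order. In kidney it was 76.8% for the control, 66.4% for the 15 min and 88.0% for the 60 min library, and 63.8, 57.3 and 79.4% when each cell was thinned to 1000 UMIs, which left out 5 to 22 cells per library. In the tumor, the shares were 65.1, 72.4 and 86.1%, and 43.2, 56.6 and 73.9% after thinning. Epithelial cells, which should lack Ccl4, gave thinned shares of 0.586, 0.113 and 5.51% in kidney proximal tubule and 1.12, 1.04 and 2.79% in tumor luminal cells in that order (unthinned 4.32, 0.743 and 23.1%, and 5.86, 8.60 and 18.5%). Median depths were 5202 to 6812 UMIs in kidney macrophages and 6041 to 7242 in proximal tubule cells, and 9278 to 11588 in tumor macrophages and 8182 to 9692 in luminal cells.

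**Figure D3:**
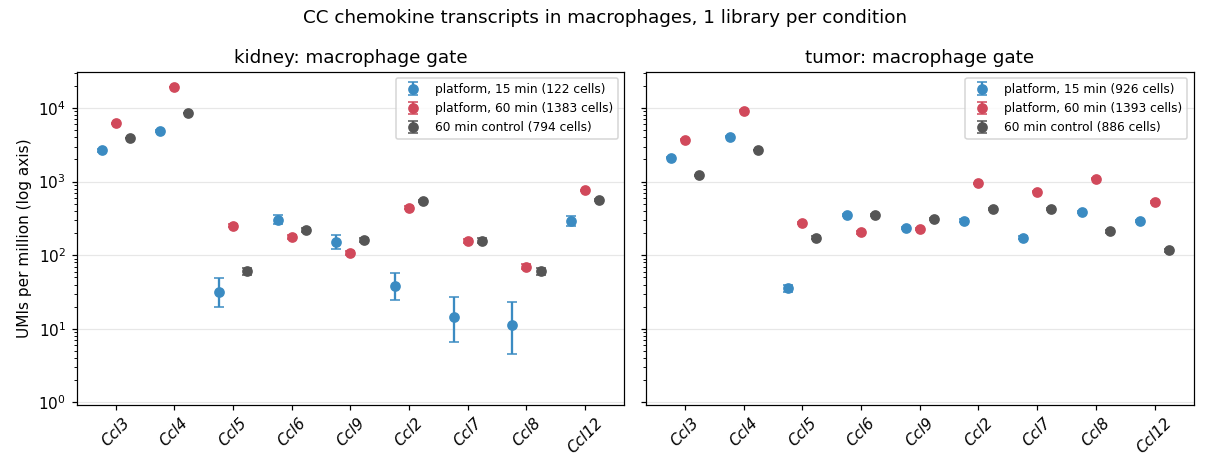
Points give the level (CPM, log axis) of each CC chemokine in the macrophages of the platform 15 min (blue), platform 60 min (red) and control (grey) library, with 95% Poisson intervals that cover counting error only. In the tumor (right), the 60 min point lies above the control for every gene but Ccl6 and Ccl9, and in kidney (left) the 15 min points of Ccl2, Ccl7 and Ccl8 lie far below the other libraries.

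The monocyte chemoattractants differed most at 15 min in kidney. Ccl2 (MCP-1), the main ligand of Ccr2 on monocytes, stood at 551 CPM in control macrophages (interval 531 to 571), 38.5 CPM at 15 min (24.7 to 57.3) and 445 CPM at 60 min (431 to 460). Its 15 min level was 14.3-fold lower than that of the control (interval 9.60 to 22.4), from 24 UMIs in 122 cells. This ratio of 0.0699 (0.0447 to 0.104) became 0.126 when cells with many genes or much mitochondrial RNA were not removed. Ccl7 (MCP-3) stood at 158 CPM in the control, 14.4 CPM at 15 min and 156 CPM at 60 min, and was 10.9-fold lower at 15 min than in the control, a ratio of 0.0915 (0.0417 to 0.175). Ccl8 (MCP-2) stood at 60.4 CPM in the control, 11.2 CPM at 15 min and 69.8 CPM at 60 min, with 7 UMIs behind the 15 min value and a ratio to the control of 0.186 (0.0742 to 0.388). In summed UMIs, the control and 60 min libraries were thus close for Ccl7, with a ratio of 0.985 (0.902 to 1.08). Ccl2 was lower at 60 min, with a ratio of 0.808 (0.770 to 0.849). With cells thinned to 1000 UMIs, the 60 min ratio was 0.590 for Ccl7 and 0.627 for Ccl2.

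Kidney Ccl8 and Ccl7 came from few cells. Ccl8 had a UMI in 20 control, 2 platform 15 min and 54 platform 60 min macrophages. Ccl7 had a UMI in 93, 2 and 108 macrophages, so that each 15 min value of these genes rests on 2 cells.

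In tumor macrophages, Ccl2 stood at 431 CPM in the control (interval 418 to 444), 294 CPM at 15 min (283 to 306) and 949 CPM at 60 min (934 to 964). Ccl7 stood at 420 CPM in the control, 174 CPM at 15 min and 733 CPM at 60 min. Both were lowest at 15 min and highest at 60 min, 2.20-fold (2.13 to 2.28) and 1.74-fold (1.68 to 1.81) the control at 60 min. Ccl8 stood at 211 CPM in the control, 389 CPM at 15 min and 1097 CPM at 60 min, 5.21-fold the control at 60 min (4.98 to 5.45), and was the member with the highest 60 min ratio in the tumor.

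Ccl12 (MCP-5), a mouse chemokine that acts on Ccr2, was found almost wholly in macrophages. In kidney it stood at 563 CPM in control macrophages (interval 543 to 583), 290 CPM at 15 min (250 to 336) and 761 CPM at 60 min (742 to 780). In the tumor it stood at 116 CPM in the control (109 to 123), 294 CPM at 15 min (282 to 305) and 527 CPM at 60 min (516 to 538). The tumor control was the lowest of the 3, and the ratios to it were 2.53 at 15 min (2.36 to 2.71) and 4.54 at 60 min (4.27 to 4.83). Among the other gated tumor classes with at least 50 cells in a library, the highest level was 5.63 CPM, from 3 UMIs in control monocytes.

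Ccl6 and Ccl9, the neighbouring rodent chemokines, went the other way at 60 min. In tumor macrophages, Ccl6 stood at 355 CPM in the control, 350 CPM at 15 min and 204 CPM at 60 min, and the 60 min ratio to the control was 0.576 (0.549 to 0.604). In kidney macrophages, Ccl6 stood at 221 CPM in the control, 303 CPM at 15 min and 177 CPM at 60 min, with a 60 min ratio of 0.800 (0.740 to 0.865). Ccl9 stood at 311 CPM in the tumor control, 234 CPM at 15 min and 228 CPM at 60 min. In kidney, Ccl9 stood at 160, 152 and 106 CPM in the same order, with a 60 min ratio of 0.662 (0.602 to 0.728). Over all macrophages, both genes were below the control at 60 min in both tissues, by less than 2-fold. In the tumor this order turned within cluster 5 of the macrophages, where the 60 min ratio was 1.46 for Ccl9 (1.33 to 1.59) and 1.12 for Ccl6 (0.946 to 1.33).

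Ccl5 (RANTES), a product of cytotoxic lymphocytes and of activated macrophages, was a minor transcript of macrophages. It stood at 60.9 CPM in kidney control macrophages (interval 54.5 to 67.9), 32.1 CPM at 15 min (19.6 to 49.6) and 253 CPM at 60 min (242 to 264), 4.16-fold the control at 60 min (3.70 to 4.69). The 15 min kidney value rests on 20 UMIs, of which 14 lay in 1 cell. Its ratio to the control was 0.527, and 0.301 from the mean of per-cell CPM. In tumor macrophages Ccl5 stood at 172 CPM in the control, 35.3 CPM at 15 min and 271 CPM at 60 min. The 15 min level was 4.86-fold lower than the control in the tumor (4.31 to 5.50). Of the 7 T cell markers, 0 had a UMI in kidney macrophages at 15 min, 5 in the control and 7 at 60 min, at a summed 0, 2.06 and 5.07 CPM against 5645 CPM in T lymphocytes. The NK markers summed to 0, 0.561 and 1.73 CPM, and the part of these cells in the Ccl5 values was not tested. Proximal tubule cells held Ccl5 at 1.78 to 3.19% of the macrophage level of the same library, more than for Ccl3 and Ccl4, which stood at or below 0.297% in all 3 libraries. T lymphocytes and NK cells held more of the kidney Ccl5 UMIs than macrophages, so these shares are of a minor source.

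Calls were set at 2-fold in CPM with at least 50 UMIs over the pair of libraries, a rule of size and not a test, and all 9 genes had that many UMIs in each comparison. At 15 min in kidney macrophages, 3 of the 9 were at least 2-fold lower than in the control (Ccl2, Ccl7 and Ccl8), where 5.76% of the 6978 genes counted were, and 0 were higher, against 3.57%. At 60 min in kidney, 2 were at least 2-fold higher (Ccl4 and Ccl5), against 2.02% of 9044 genes, and 0 were lower, against 0.398%. At 15 min in the tumor, 1 was higher (Ccl12), against 8.51% of 9697 genes, and 2 were lower (Ccl5 and Ccl7), against 4.34%. At 60 min in the tumor, 5 were higher (Ccl2, Ccl3, Ccl4, Ccl8 and Ccl12), against 3.38% of 10065 genes, and 0 were lower, against 2.20%.

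The median log2 ratio, of CPM + 1, over the 9 genes was -0.90 at 15 min and 0.21 at 60 min in kidney, beside 0.098 and 0.012 over all genes counted. In the tumor it was -0.02 at 15 min and 1.14 at 60 min, beside 0.22 and 0.00027 over all genes. Over all tumor macrophages at 15 min, Ccl3, Ccl4, Ccl8 and Ccl12 were above the control and Ccl2, Ccl5, Ccl7 and Ccl9 below it, but Ccl8 was below the control within each of the largest pair of macrophage clusters, as given with them. Both platform libraries of a tissue were set against the same control library. Of the markers of other classes, granulocyte genes summed to 115, 34.3 and 37.6 CPM in the tumor macrophages of the control, 15 min and 60 min libraries and fibroblast genes to 12.9, 17.4 and 55.8 CPM, and their part in these values was not tested.

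**Figure D4:**
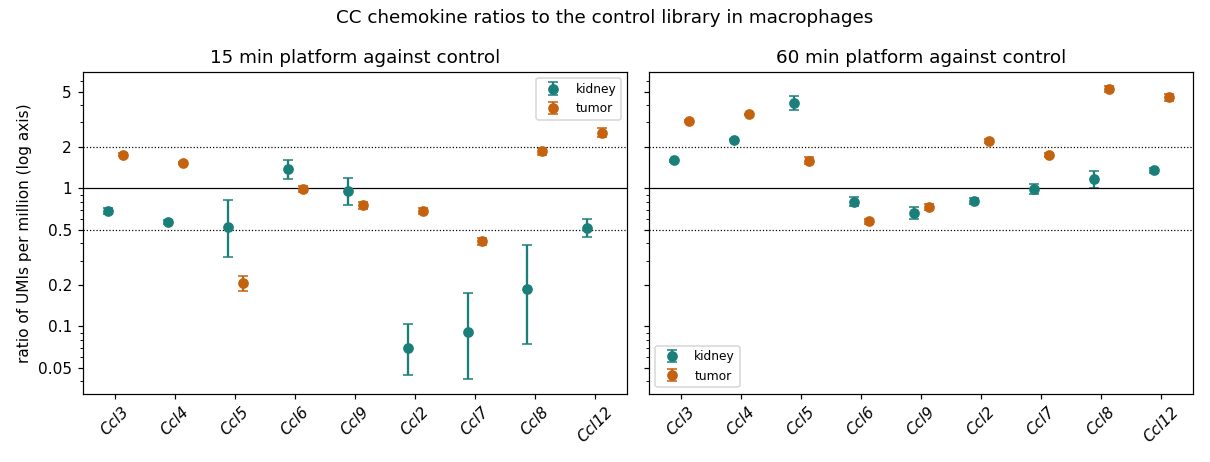
Points give the ratio of CPM in macrophages between a platform library and the control (log axis, 15 min left, 60 min right) for each gene in kidney (green) and tumor (orange), with 95% intervals that cover counting error only. Dotted lines mark 2-fold. At 60 min, Ccl2, Ccl3, Ccl4, Ccl8 and Ccl12 lie above 2-fold in the tumor, and at 15 min Ccl2, Ccl7 and Ccl8 lie below it in kidney.

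Between the platform libraries themselves, 7 of the 9 genes had higher macrophage levels at 60 min than at 15 min in both tissues. At least 2-fold, 7 were higher in kidney and 5 in the tumor, against 8.49 and 2.95% of all genes counted. In both tissues 0 were at least 2-fold lower, against 4.82 and 2.89%. In kidney, the ratio was 11.6 for Ccl2 (interval 7.76 to 18.1), 10.8 for Ccl7 (5.65 to 23.6), 7.89 for Ccl5 (5.10 to 12.9), 6.21 for Ccl8 (3.00 to 15.5), 3.94 for Ccl4, 2.62 for Ccl12 and 2.32 for Ccl3. In the tumor, the ratio was 7.67 for Ccl5 (6.84 to 8.63), 4.22 for Ccl7, 3.23 for Ccl2, 2.82 for Ccl8, 2.26 for Ccl4, 1.79 for Ccl12 and 1.76 for Ccl3. Within cluster 2 of the tumor macrophages, described next, the ratio was 1.15 for Ccl3, 1.38 for Ccl4 and 1.96 for Ccl12. There it was 5.00 for Ccl5, 4.72 for Ccl7, 3.84 for Ccl2 and 3.67 for Ccl8. Over all macrophages, Ccl6 was lower at 60 min, with a ratio of 0.584 in each tissue. Ccl9 had a ratio of 0.697 in kidney and 0.974 in the tumor, where its interval of 0.923 to 1.03 spanned 1. Within tumor subsets described below, the Ccl9 ratio was 0.799 in cluster 2 (0.744 to 0.858) and 0.614 in cluster 5. It was 0.595 in the Folr2 Pf4 cells and 1.57 in the Cx3cr1 Tmem119 cells (1.44 to 1.72).

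The tumor macrophages of the 3 libraries were spread differently over the clusters. Clusters were built without any CC chemokine gene, and the largest pair of clusters among the gated macrophages were cluster 2, which led with Cd209f, Folr2, Pf4, Jun and Klf2, and cluster 5, which led with Cd207, Srxn1, Procr and Cxcl3. Cluster 2 held 202 of the 886 control, 730 of the 926 platform 15 min and 844 of the 1393 platform 60 min macrophages, and cluster 5 held 463, 24 and 348. Levels over all tumor macrophages therefore pool these clusters in different shares. Only CC chemokines were left out of the clustering. Jun, a dissociation stress gene, stood at 3636 CPM in cluster 2 and 739 CPM in the other macrophages. Over all tumor macrophages Jun stood at 607 CPM in the control, 3857 CPM at 15 min and 2586 CPM at 60 min. The part of stress state in these clusters was not tested. In the control, Ccl7 stood at 1270 CPM in cluster 2 and 104 CPM in cluster 5, and Ccl8 at 902 and 9.77 CPM.

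Within cluster 2, the ratio of 60 min to control was 1.84 for Ccl4 (interval 1.79 to 1.88), 1.58 for Ccl3 (1.53 to 1.64), 1.93 for Ccl8 (1.85 to 2.02), 2.24 for Ccl12 (2.07 to 2.43) and 1.07 for Ccl2 (1.02 to 1.11). Ccl7, at 920 CPM against 1270 CPM in the control, had a ratio of 0.724 (0.695 to 0.756), on the other side of 1 from its value over all macrophages. Ccl6 and Ccl9 had ratios of 0.303 (0.284 to 0.324) and 0.428 (0.394 to 0.465) there. Within cluster 5, the 60 min ratios were larger, 6.56 for Ccl4 (6.44 to 6.67), 5.91 for Ccl3 (5.75 to 6.07), 9.26 for Ccl8 (6.96 to 12.5), 5.44 for Ccl12 and 4.13 for Ccl2, and Ccl7 stood at 416 CPM against 104 CPM. At 60 min, 1 member was at least 2-fold higher and 3 at least 2-fold lower (Ccl5, Ccl6 and Ccl9) in cluster 2, against 1.80 and 1.69% of the 8818 genes counted. In cluster 5, 7 were higher and 0 lower, against 1.47 and 2.16% of 7694 genes.

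At 15 min, the ratio of Ccl8 to the control was 0.526 within cluster 2 (interval 0.498 to 0.556), 0.356 within cluster 5 (0.00885 to 2.07, from 1 UMI at 15 min) and 0.413 in the Cx3cr1 Tmem119 cells described next (0.320 to 0.529), on the other side of 1 from its value of 1.85 over all tumor macrophages. In the other marker groups Ccl8 was above the control. It stood at 4781 CPM against 1715 CPM in the few Folr2 Pf4 cells. In cells that met both marker lists it stood at 2411 CPM against 1832 CPM, and in cells that met neither at 125 CPM against 7.53 CPM. The Cx3cr1 Tmem119 cells held 91 of the 3438 Ccl8 UMIs of the 15 min tumor macrophages. Ccl12 had a ratio of 1.15 within cluster 2 (1.05 to 1.25), 0.193 within cluster 5 (0.0524 to 0.498) and 3.47 in the Cx3cr1 Tmem119 cells (3.14 to 3.84). Ccl3 and Ccl4 stayed above the control, with ratios of 1.37 and 1.33 within cluster 2 and 1.33 and 1.24 within cluster 5. Within cluster 2, 0 members were at least 2-fold higher and 3 lower at 15 min (Ccl2, Ccl5 and Ccl7), against 3.56 and 2.50% of 8567 genes. Within cluster 5, with 24 cells at 15 min, 2 were higher (Ccl6 and Ccl9) and 5 lower, against 7.64 and 11.1% of 6647 genes. In kidney, cluster 5 of that tissue's own clustering held 75.4 to 91.9% of the macrophages of each library, and the counts within it were those over all macrophages, against 3.80% higher and 6.19% lower of 6769 genes at 15 min and 2.10 and 0.463% of 8861 genes at 60 min.

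Marker sub-gates gave another view of the tumor macrophages. Cells with at least 3 of Cx3cr1, Tmem119, P2ry12, Olfml3, Gpr34 and Trem2 were 66.6% of macrophages for the control, 78.1% at 15 min and 70.2% at 60 min. Those with at least 3 of Folr2, Pf4, Lyve1, Cbr2, F13a1, Cd163 and Mrc1, genes of tissue-resident macrophages, numbered 41, 35 and 61 cells, or 3.78 to 4.63%. Cells that met both, 40, 55 and 186 in number, were kept apart.

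The few Folr2 Pf4 cells carried high levels of the monocyte chemoattractants and of Ccl6 and Ccl9. In the control, Ccl6 stood at 4559 CPM in them and 54.9 CPM in the Cx3cr1 Tmem119 cells, Ccl7 at 3843 and 108 CPM, Ccl2 at 2963 and 224 CPM, Ccl9 at 2541 and 140 CPM and Ccl8 at 1715 and 30.9 CPM. Ccl3 and Ccl4 had the opposite order, with 172 CPM of Ccl3 in Folr2 Pf4 cells and 1341 CPM in Cx3cr1 Tmem119 cells. Ccl8 in the Folr2 Pf4 cells stood at 4781 CPM at 15 min and 9460 CPM at 60 min, 5.52-fold the control at 60 min (interval 5.13 to 5.94). Ccl4 in these cells went from 245 CPM in the control and 343 CPM at 15 min to 4529 CPM at 60 min. In the Cx3cr1 Tmem119 cells, the 60 min ratio to the control was 5.74 for Ccl12 (5.24 to 6.31), 4.15 for Ccl8, 3.26 for Ccl4, 2.94 for Ccl3, 2.29 for Ccl2, 2.24 for Ccl7, 1.30 for Ccl6 (1.15 to 1.46) and 1.06 for Ccl9 (0.984 to 1.15), and Ccl5 stood at 279 CPM against 186 CPM. Ccl6 was thus above the control in these cells and below it over all tumor macrophages.

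**Figure D5:**
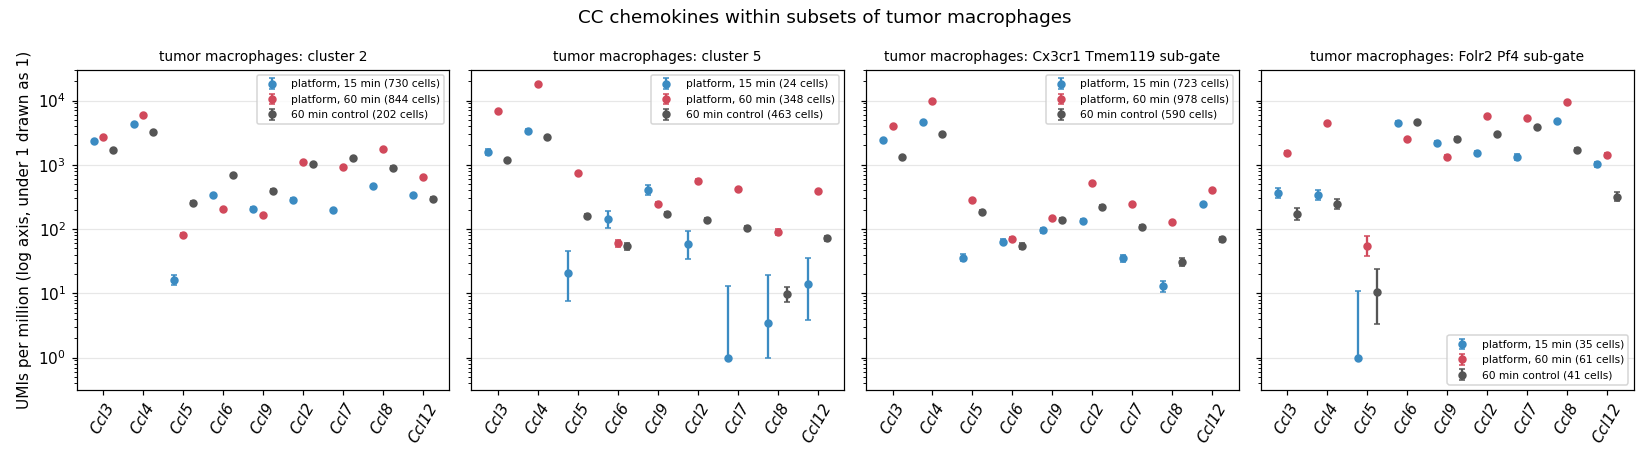
Points give the level (CPM, log axis, values under 1 drawn as 1) of each CC chemokine in 4 subsets of tumor macrophages, for the platform 15 min (blue), platform 60 min (red) and control (grey) library, with 95% Poisson intervals. Ccl2, Ccl6, Ccl7, Ccl8 and Ccl9 lie above 1000 CPM in all 3 libraries of the Folr2 Pf4 sub-gate (right), and the 60 min points of Ccl7 lie below the control in cluster 2 (left).

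Single macrophages differed widely in every member. The median kidney macrophage held Ccl4 at 2817 CPM in the control, 1197 CPM at 15 min and 11383 CPM at 60 min, and the 90th percentile was 25331, 13270 and 43807 CPM. Ccl3 and Ccl4 were spread over many cells, and the 10% of macrophages richest in Ccl3 held 43.6 to 50.1% of its UMIs in the kidney libraries and 39.5 to 67.5% in the tumor libraries. Ccl8 was concentrated, with 94.4 to 100% of its UMIs in the richest 10% of tumor macrophages, and 1 tumor cell of the 60 min library held 1041 Ccl8 UMIs. Ccl6 was even in kidney, where the richest 10% held 36.1 to 41.2%, and concentrated in the tumor, at 78.7 to 88.1%.

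Across single macrophages within a library, the Spearman correlation of CPM was highest for Ccl3 with Ccl4, between 0.760 and 0.852 in the 6 libraries of 122 to 1393 cells. Ccl2 with Ccl7 came next in 4 of them, at 0.494 to 0.547 in the 3 tumor libraries and 0.414 in the kidney control. Ccl6 with Ccl9 lay between 0.289 and 0.361 in the tumor and between 0.0635 and 0.218 in kidney. These are descriptions over cells of 1 library each, which share its depth, and most pairs rest on low counts.

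Outside macrophages, Ccl3 and Ccl4 were also higher at 60 min in several classes. In kidney NK cells, Ccl4 stood at 1120 CPM in the control, 1808 CPM at 15 min and 7929 CPM at 60 min, from 36, 41 and 84 cells, 7.08-fold the control at 60 min (interval 6.09 to 8.27). In kidney dendritic cells, Ccl4 stood at 1063 CPM in 70 control cells and 5769 CPM in 158 cells at 60 min. Tumor granulocytes held Ccl3 at 1018 CPM in the control, 2014 CPM at 15 min and 6107 CPM at 60 min, in 238, 97 and 59 cells. Kidney granulocytes went the other way, with Ccl3 at 1731 CPM in 34 control cells and 1189 CPM in 40 cells at 60 min.

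Ccl5 in kidney lymphocytes moved little between libraries. In NK cells it stood at 12626 CPM in the control, 13883 CPM at 15 min and 12744 CPM at 60 min, and the interval of the ratio of 60 min to control was 0.957 to 1.06. In kidney T lymphocytes it stood at 3537 CPM in the control, 2892 CPM at 15 min and 3022 CPM at 60 min. In tumor T lymphocytes it was highest in the control, at 1329 CPM, against 593 CPM at 15 min and 767 CPM at 60 min, ratios of 0.447 (0.412 to 0.483) and 0.577 (0.540 to 0.617).

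Tumor fibroblasts were a source of Ccl2 and Ccl7 as well. Ccl2 stood at 317 CPM in 26 control fibroblasts, 20.2 CPM in 62 cells at 15 min and 192 CPM in 258 cells at 60 min, and Ccl7 at 534, 54.6 and 192 CPM. The 15 min level of Ccl2 was 15.7-fold lower than that of the control, from 10 UMIs, a ratio of 0.0639 (0.0294 to 0.124). Granulocytes were the class with the highest kidney Ccl6 level among those of at least 20 cells, at 2331 CPM in the control and 2188 CPM at 60 min, above the 221 and 177 CPM of macrophages.

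Epithelial cells were read for background, and RNA carried over from other cells was not told apart from expression by epithelial cells. In kidney proximal tubule, Ccl4 stood at 6.74 CPM in the control, 2.09 CPM at 15 min and 57.2 CPM at 60 min, or 0.0788, 0.0428 and 0.297% of the macrophage level. The complement gene C1qa, made by macrophages, stood at 0.0504, 0.00887 and 0.150% of its macrophage level in the same cells, below Ccl4 in each library. C1qc stood at 0.0630, 0.0114 and 0.139%. C1qb stood at 0.0973, 0.0121 and 0.157%, above Ccl4 in the control and below it in both platform libraries. In tumor luminal cells, Ccl4 stood at 0.237 to 0.321% of the macrophage level. Other members had higher shares, up to 1.97% for Ccl2, 2.27% for Ccl9 and 4.51% for Ccl5 in luminal cells and up to 1.07% for Ccl6 and 1.32% for Ccl9 in proximal tubule. Ccl5 stood higher in T lymphocytes than in macrophages, so its share depends on the class it is set against. Luminal C1qa stood at 0.0954 to 0.126%.

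Over 47 sums of a class in a library with at least 50 cells, from both tissues, the genes whose log2 CPM followed each member most closely were named among 8084 genes that reached 50 CPM in a sum. Ccl3 and Ccl4 followed each other at r = 0.979, and then both followed Itgax, Lilrb4a and Lilr4b, at 0.926 to 0.935 for Ccl3 and 0.896 to 0.913 for Ccl4. Ccl12 followed the complement genes C1qc, C1qb and C1qa at 0.976, 0.973 and 0.965, which are among the macrophage gate's own markers. Ccl6 followed Cd300a (0.989), Lrrc25 (0.987) and Igsf6 (0.980), and Ccl9 followed Aif1, Mpeg1 and Gpr141 at 0.931 to 0.939. Ccl2 followed Ccl7 at 0.940 and Rab7b (0.899), Tnip3 (0.867) and Sowahc (0.867), and Ccl7 followed Rab7b (0.876), Zfp385a (0.815) and Lacc1 (0.810). Ccl8 followed Tmem119 (0.898), Cd209f (0.866) and Folr2 (0.854), and Ccl5 followed Klrk1 (0.909), Cxcr3 (0.888) and Ptpn22 (0.881). These correlations are descriptions over points that share libraries and cell classes, in tables whose depth had been evened by tissue.

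Receptors of these ligands were read in the same cells. Ccr2 was highest in monocytes, at 419 CPM in kidney and 434 CPM in the tumor over the 3 libraries. Ccr1 was highest in granulocytes, at 1463 CPM in kidney and 1043 CPM in the tumor, with 384 CPM in tumor macrophages. Of the 15 CC receptor genes, 4 to 7 had at least 50 UMIs in the macrophages of a pair of libraries. Ccrl2, an atypical receptor that binds chemerin, stood in kidney macrophages at 124 CPM at 15 min and 748 CPM at 60 min and was 2.69-fold lower than the control at 15 min and 2.25-fold higher at 60 min.

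In the tumor, Ccr6 was at least 2-fold higher at 15 min than in the control, at 63.5 CPM, and Ccr7 lower, with 1 UMI at 15 min and 90 in the control. Between the platform libraries, Ccr2 was at least 2-fold lower and Ccrl2 higher at 60 min in kidney, and Ccr7 and Ccrl2 were higher and Ccr6 lower at 60 min in the tumor. The 15 min tumor library was also lower in Ccl17, with 2 UMIs against 87, and Ccl22, with 7 against 130, both ligands of Ccr4. Ccl17 was 2.17-fold lower than the control in the tumor at 60 min. Of the 12 other CC chemokines, 0 to 5 reached 50 UMIs in a comparison with the control, and Ccl22 and Ccl24 were at least 2-fold higher in kidney at 60 min, at 19.6 and 9.02 CPM against 6.91 and 0.747 CPM in the control.

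Genes of NF-κB signalling, which drives several CC chemokines, were read as a list in macrophages. Of 11 NF-κB inducers and feedback genes, 7 were at least 2-fold lower than the control in kidney macrophages at 15 min (Tnf, Il1a, Il1b, Nfkb1, Relb, Nfkbia and Tnfaip3), and 0 were higher, with a median log2 ratio of -1.25. Of all genes counted there, 5.76% were lower and 3.57% higher, with a median log2 ratio of 0.098. Tnf stood at 122 CPM at 15 min and 1136 CPM at 60 min, and Il1a had 0 UMIs at 15 min against 249 in the control. At 60 min in kidney, 3 of the 11 were higher (Tnf, Tnfaip3 and Zfp36) and 0 were lower, against 2.02 and 0.398% of all genes. In the tumor, 3 were lower at 15 min (Nfkb1, Nfkb2 and Relb) and 2 higher (Nfkbiz and Zfp36), against 4.34 and 8.51% of all genes. At 60 min in the tumor, Tnf and Zfp36 were higher and 0 of the 11 were lower, against 3.38 and 2.20%. Between the platform libraries, 7 of the 11 were at least 2-fold higher at 60 min than at 15 min in kidney (Tnf, Il1a, Il1b, Relb, Nfkbia, Nfkbiz and Tnfaip3) and 4 in the tumor (Tnf, Il1a, Nfkb1 and Tnfaip3), and 0 were lower. Of all genes counted in that comparison, 8.49% were higher and 4.82% lower in kidney and 2.95 and 2.89% in the tumor.

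Of the 12 dissociation stress genes, which include Fos, Jun and heat shock genes, 1 was higher (Fos) and 4 were lower (Nr4a1, Gadd45b, Hsp90aa1 and Hspd1) at 15 min in kidney, and 5 were higher at 60 min (Atf3, Egr1, Jun, Fos and Fosb) and 1 was lower (Gadd45b). Of all genes counted in kidney, 3.57% were higher and 5.76% lower at 15 min, and 2.02 and 0.398% at 60 min. In the tumor, 5 of the 12 were higher at 15 min (Atf3, Egr1, Jun, Fos and Fosb) and 1 was lower (Gadd45b), against 8.51 and 4.34% of all genes. At 60 min in the tumor, 5 were higher (Atf3, Egr1, Jun, Fos and Hsp90aa1) and 0 were lower, against 3.38 and 2.20%. The list summed to 17727, 16118 and 32539 CPM in the control, 15 min and 60 min kidney macrophages and to 10924, 22075 and 21847 CPM in the tumor. Between the platform libraries, 7 of the 12 were higher at 60 min in kidney (Nr4a1, Gadd45b, Atf3, Egr1, Hsp90aa1, Hspa8 and Hspd1), against 8.49% of all genes. In the tumor 2 were higher at 60 min than at 15 min (Gadd45b and Hsp90aa1) and 1 was lower (Egr1), against 2.95 and 2.89%. The part of this list in the chemokine values was not tested. The median mitochondrial share of macrophages was 4.83, 7.50 and 4.98% in kidney and 5.08, 5.51 and 5.24% in the tumor, in the same order, and its part was not tested either.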

How the data were processed

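Single cells of mouse kidney and mammary tumor were profiled with 10x Chromium v3 3′ chemistry, 1 library per condition and tissue. The deposited tables hold whole-number UMI counts, which the authors made with Cell Ranger 3.1.0 against mm10 and aggregated within each tissue to even the depth of its libraries. Cells with at least 200 genes, at most 3000 (kidney) or 4000 (tumor) genes and at most 50% (kidney) or 25% (tumor) mitochondrial UMIs were kept. A cell could be assigned to a class when 3 or more markers of that class's own list had a UMI. Where several lists of 1 lineage passed, the class with the highest share of its list detected was taken, and ties were set apart. Cells passing for several lineages were set apart, and these limits were the treatment of doublets. The gate thresholds were set after the markers' distributions had been seen. UMIs were summed per class and library and scaled to CPM, with 95% exact Poisson intervals, exact conditional intervals of ratios and exact binomial intervals of shares, all covering counting error only. No test between conditions was possible with 1 library each. Leiden clusters (resolution 0.5, 2000 variable genes, 20 components, 20 neighbours) excluded all CC chemokines. Of the lists of related genes, those at least 2-fold apart in macrophages with at least 50 UMIs over the pair were named, and for each member the 3 genes with the highest Pearson correlation of log2(CPM + 10). The members and lists were chosen with earlier results of these data known. Coordinates were from GENCODE on mm10. Python with numpy 2.4.6, pandas 2.3.3, scipy 1.17.1, igraph 0.11.9, leidenalg 0.10.2 and matplotlib 3.10.9 was used. The counting steps were tested on simulated Poisson sums, the law behind the intervals, which leave out the clumping of UMIs in few cells. The alternatives were other cell filters, scales, depths, gates and UMI minimums and subtraction of the epithelial level. The levels of 1 receptor gene are not reported here.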

Additional observations from a re-analysis of the deposited data

Results flagged for a closer look

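For 5 ratios to the control in macrophages, the kidney and the tumor lay on opposite sides of 1, with 1 library per condition in each, and the difference between the tissues was not tested. At 15 min, Ccl12 had a ratio of 0.516 in kidney and 2.53 in the tumor. Ccl3 had a ratio of 0.684 in kidney and 1.75 in the tumor, and its partner Ccl4 one of 0.572 and 1.52. Ccl8 had a ratio of 0.186 in kidney, from 7 UMIs at 15 min, and 1.85 in the tumor. Within subsets of the tumor macrophages its ratio was 0.526 in cluster 2, 0.356 in cluster 5 (from 1 UMI) and 0.413 in the Cx3cr1 Tmem119 cells. These lay on the same side of 1 as in kidney. The other marker groups were above the control, with 4781 CPM against 1715 CPM in the few Folr2 Pf4 cells. Cells that met both marker lists had 2411 CPM against 1832 CPM, and cells that met neither 125 CPM against 7.53 CPM. The Cx3cr1 Tmem119 cells held 91 of the 3438 Ccl8 UMIs of the 15 min tumor macrophages. The spread over clusters differed too, and cluster 2 held 202 of the 886 control and 730 of the 926 platform 15 min macrophages. Ccl12 in the tumor had a ratio of 1.15 in cluster 2 and 0.193 in cluster 5. At 60 min, Ccl2 had a ratio of 0.808 in kidney and 2.20 in the tumor. The tissues differed also in genotype, sex and age of the mice, which cannot be told apart from the tissue here.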

How the results depend on the processing

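Of the 36 macrophage ratios of 9 genes, 32 stayed on 1 side of 1 under all 8 alternative settings, and the other 4 were Ccl6 in the tumor and Ccl9 in kidney at 15 min and Ccl7 and Ccl8 in kidney at 60 min. Of the 288 alternative values, 196 lay within the interval of the reported ratio and 92 moved outside it. When cells with many genes or much mitochondrial RNA were not removed, 15 min kidney Ccl2 went from 0.0699 to 0.126. The other 7 alternatives for Ccl2 there lay within its interval. Ccl12 in the same comparison went from 0.516 to 0.771 with these cells left in. With Leiden clusters in place of the gate, 2 members were at least 2-fold higher at 15 min in kidney (Ccl6 at 2.07 and Ccl9) and 5 were lower. With cells thinned to 1000 UMIs, 1 was higher at 60 min in kidney and 2 at 15 min in the tumor, where the mean of per-cell CPM also gave 2. Thinning kept 5 higher in the tumor at 60 min but with Ccl7 (2.02) in place of Ccl2 (1.99). The cause was not tested, and shares of all genes past 2-fold are not given for these settings. Chosen after seeing the data, the subsets of tumor macrophages moved more counts. At 15 min, 0 members were higher and 3 lower within cluster 2, against 3.56 and 2.50% of all genes counted. Within cluster 5, with 24 cells at 15 min, 2 were higher and 5 lower, against 7.64 and 11.1%. Ccl12 had a ratio of 0.193 there, against 2.53 over all macrophages. At 60 min, 1 was higher and 3 were lower within cluster 2, against 1.80 and 1.69% of all genes counted. No paired analysis was possible because each condition had 1 library and no result came from a test. Depth limits the 15 min kidney values most, where 122 macrophages gave 24 Ccl2, 20 Ccl5, 9 Ccl7 and 7 Ccl8 UMIs.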
